A study of Mus musculus with 8 samples.

Results

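Glycolysis and the pentose phosphate pathway were followed through 39 listed genes in mouse embryonic stem cells (ESCs) and in primordial germ cell-like cells (PGCLCs), with and without the transcription factor gene Tfap2c. The genes were listed by their role: uptake of glucose and transport of lactate, the enzymes of glycolysis, the enzymes that set its rate through fructose 2,6-bisphosphate, the step from pyruvate to acetyl-CoA, and the pentose phosphate pathway. Of the 39 genes, 34 had at least 1 probe set that names a single gene, 75 probe sets in all, and each gene was represented by its brightest probe set on average over all arrays. Gapdh was measured only by control probe sets of the array manufacturer and is reported apart, which brings the genes with values to 35 of 39. The 34 genes were tested among 18193 genes of the whole series. Gpi1, Eno1, Pfkfb1 and G6pdx were not analysed here.

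Glycolysis splits glucose into pyruvate in a preparatory phase that consumes ATP and a payoff phase that returns it, and lactate dehydrogenase can then turn pyruvate into lactate. The pentose phosphate pathway branches off after the first step and yields NADPH and ribose 5-phosphate, the sugar of nucleotides. Pluripotent cells are known for active glycolysis, and several glycolytic genes are well-known targets of the hypoxia-inducible factors (HIF).

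The study asked which genes depend on Tfap2c, which encodes transcription factor AP-2 gamma, in these cell types. The control ESCs were the parental Blimp1mVenus/Tfap2c flox/flox lines, and the Tfap2c-/- ESCs came from the same lines after transient transfection with a plasmid expressing Cre from the Pgk promoter, so that all groups carried the Blimp1mVenus reporter. PGCLCs were made from control or Tfap2c-/- ESCs by way of epiblast-like cells in medium with BMP4, BMP8b, SCF, LIF and EGF and were sorted for the reporter, and the labels call them PGCs. For expression analysis the ESCs were grown without serum in medium with LIF and the inhibitors PD0325901 and CHIR99021. The 8 arrays, 2 for each of the 4 groups, are described as biological replicates, and although the study used a pair of ESC lines the labels do not say which line gave replicate 1 or 2. All values below are log2 expression values of the authors, a difference of 1 is a doubling, an SE comes from limma, and a gene "passed" when its adjusted p in limma was under 0.05.

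Tfap2c itself was 7.88 and 9.14 (control ESCs), 7.28 and 6.47 (Tfap2c-/- ESCs), 9.84 and 10.29 (control PGCLCs) and 8.52 and 8.85 (Tfap2c-/- PGCLCs). Both knockout arrays lay below both control arrays in each cell type, but the differences did not pass (−1.38 in PGCLCs, adjusted p = 0.15, and −1.63 in ESCs, adjusted p = 1, limma). Where its probe set lies relative to the deleted exons was not checked. The mean of 9 measured PGC markers was 8.53 and 8.73 (control PGCLCs), 7.24 and 7.23 (Tfap2c-/- PGCLCs) and 6.59 to 7.15 (ESCs). These 9 include Tfap2c, the deleted gene, which enters the means. In control PGCLCs 7 of these 9 were higher than in control ESCs, among them Dppa3 (4.05), Dnd1 (2.12) and Prdm1 (1.99). Prdm1 encodes BLIMP1, whose reporter was used to sort the PGCLCs, so its difference is not independent of the sort. The pluripotency markers were high on every array, with means of 9.9955 to 10.8. Of 10 measured, 4 passed as lower in control PGCLCs than in control ESCs and 1 as higher. Over all genes 3.72% passed as lower and 4.64% as higher. The lower ones were Klf4 (−4.22), Tdgf1 (−1.18), Tfcp2l1 (−1.06) and Nanog (means of 10.59 in control ESCs and 10.04 in control PGCLCs). Dppa4 was the higher one (means of 9.77 and 10.63). Markers of fibroblasts were a check on other cells in the PGCLCs, which were made without feeders and sorted for the reporter. They averaged 3.42 and 3.60 on the replicate 1 arrays of control and Tfap2c-/- PGCLCs, 2.79 and 2.96 on their replicate 2 arrays and 2.58 to 2.69 in the ESCs. Of this list Postn was higher on replicate 2 in both genotypes (0.59 and 0.11), and Lum in Tfap2c-/- PGCLCs (0.38). In the same order of PGCLC arrays, endoderm markers averaged 3.41 and 3.46 against 2.91 and 3.01, trophoblast 4.84 and 4.77 against 4.54 and 4.22, mesoderm 4.01 and 3.96 against 3.99 and 3.82, and neural 3.94 and 3.85 against 3.99 and 4.13.

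The promoters of Hk1, Hk2 and Pgd, which are among the members with the largest differences past limma, and of Ldha are given here because AP-2 and HIF factors bind short DNA motifs. Each line gives the 250 bases before an annotated RefSeq start (build GRCm38.p6), 5′ to 3′ in the direction of the gene, with matches to the hypoxia response element core ACGTG (either strand) and to the AP-2 core GCCNNNGGC in capitals. Hk1 has a pair of annotated windows, both on the minus strand, at chr10:62379909-62380158 and chr10:62340422-62340671.
Hk1, upstream start: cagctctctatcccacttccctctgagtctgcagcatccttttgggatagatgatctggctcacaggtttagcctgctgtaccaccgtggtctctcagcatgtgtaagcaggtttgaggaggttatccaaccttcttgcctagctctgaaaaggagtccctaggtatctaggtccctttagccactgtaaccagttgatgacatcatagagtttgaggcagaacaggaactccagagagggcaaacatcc
Hk1, downstream start: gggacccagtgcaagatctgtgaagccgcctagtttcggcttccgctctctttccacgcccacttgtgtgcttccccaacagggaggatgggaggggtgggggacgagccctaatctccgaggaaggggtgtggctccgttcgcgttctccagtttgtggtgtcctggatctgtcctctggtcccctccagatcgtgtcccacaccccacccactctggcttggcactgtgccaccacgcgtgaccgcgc
Hk2 lies on the minus strand at chr6:82774455-82774704, Pgd on the minus strand at chr4:149166083-149166332 (the downstream of its annotated starts), and Ldha on the plus strand at chr7:46845554-46845803 (the upstream of its annotated starts). Ldha was chosen for this after its values were seen.
Hk2: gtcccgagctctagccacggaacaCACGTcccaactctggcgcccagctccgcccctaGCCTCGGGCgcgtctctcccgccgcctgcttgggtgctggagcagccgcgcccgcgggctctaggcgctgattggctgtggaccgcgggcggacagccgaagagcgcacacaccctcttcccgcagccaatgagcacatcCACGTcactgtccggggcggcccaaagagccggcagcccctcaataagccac
Pgd, downstream start: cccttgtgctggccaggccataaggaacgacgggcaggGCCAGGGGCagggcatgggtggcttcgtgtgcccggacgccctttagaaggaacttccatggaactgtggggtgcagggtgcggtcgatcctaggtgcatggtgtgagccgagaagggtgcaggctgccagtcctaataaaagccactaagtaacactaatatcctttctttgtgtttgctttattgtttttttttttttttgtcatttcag
Ldha, upstream start: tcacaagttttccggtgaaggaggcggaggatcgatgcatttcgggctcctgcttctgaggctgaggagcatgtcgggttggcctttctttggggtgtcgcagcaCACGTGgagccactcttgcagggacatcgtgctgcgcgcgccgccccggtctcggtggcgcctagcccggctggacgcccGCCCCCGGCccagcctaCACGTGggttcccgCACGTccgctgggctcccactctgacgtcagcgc
The Hk1 windows held neither motif before the start, and neither did those of Aldoc, another member with a large difference. When the 50 bases after the start were included, 1 window of each of these 2 genes held ACGTG. The Hk2 window held the ACGTG core at 2 places and 1 AP-2 core, the Pgd window 1 AP-2 core, and the Ldha window the ACGTG core at 3 places and 1 AP-2 core. The other annotated windows of Pgd (chr4:149166706-149166955) and Ldha (chr7:46846832-46847081) held neither motif. For Pgd and Ldha only the window with a match is printed. Which annotated start is used in these cells was not tested. CACGTG, which reads ACGTG on both strands, was counted as 1 place. Over windows that also take in the 50 bases after the start, ACGTG was present in 23 of the 58 windows of the members (39.7%) and in 19.6% of all 32851 windows. GCCNNNGGC was present in 16 of 58 (27.6%) and in 16.6% of all. A match is a match of letters only, and no window was found for Slc2a3.

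Control PGCLCs were compared with control ESCs to see how the pathway differs between the cell types before Tfap2c is lost. In control PGCLCs 10 of the 34 measured members were lower and 1 was higher (limma). They were 2 of 4 transporters, 3 of 8 enzymes of the preparatory phase, 3 of 8 of the payoff phase and 3 of 6 of the pentose phosphate pathway, and none of the 3 PFK2 or 5 pyruvate dehydrogenase genes. Over all genes 3.72% passed as lower and 4.64% as higher. The median difference of the members was −0.33, against −0.03 over all genes. Since RNA was taken from whole populations, fewer cells of a type and less RNA per cell cannot be told apart.

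Among the 4 transporters, both of the ones that passed were lower in control PGCLCs. Slc2a1, the glucose transporter GLUT1, was 10.67 and 10.69 in control ESCs and 9.86 and 10.02 in control PGCLCs, a difference of −0.74 (SE 0.18, adjusted p = 0.0431). The arrays of Tfap2c-/- ESCs (10.63 and 10.22) and Tfap2c-/- PGCLCs (10.24 and 10.66) lay above both control PGCLC arrays. Slc16a1, the monocarboxylate transporter MCT1, was 10.05 and 10.32 in control ESCs and 9.54 and 9.61 in control PGCLCs, a difference of −0.61 (SE 0.12, adjusted p = 0.0213). Its values were 10.20 and 10.31 in Tfap2c-/- ESCs and 9.81 and 9.84 in Tfap2c-/- PGCLCs, the latter between the control PGCLCs and the ESCs. Slc2a3, the glucose transporter GLUT3, was within 11.66 to 11.92 on all arrays of its brightest probe set. Its 4 probe sets gave control differences of −1.52 to −0.15, the larger ones from the pair of dim probe sets, and Slc2a3 passed as lower when its probe sets were averaged and when those liable to cross-hybridize were left out. Slc16a3, the lactate exporter MCT4, was within 1.98 to 3.60 on all arrays, below the median level of all genes (4.68).

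In the preparatory phase Hk2, Aldoa and Aldoc passed as lower. Hk2, one of the hexokinases that commit glucose to the cell by phosphorylation, was 10.11 and 10.01 in control ESCs and 7.76 and 8.46 in control PGCLCs, a difference of −1.95 (SE 0.36, adjusted p = 0.0201), which is 3.85-fold. Its paralog Hk1 was 7.40 and 7.73 in control ESCs and 8.06 and 8.35 in control PGCLCs, so that it lay higher in the PGCLCs without passing (0.64, SE 0.23, adjusted p = 0.134). The pair thus lay on opposite sides of 0 between the cell types. Aldoa, the aldolase of most tissues, was 10.76 and 11.10 (control ESCs), 11.13 and 10.23 (Tfap2c-/- ESCs), 9.77 and 9.78 (control PGCLCs) and 9.80 and 9.67 (Tfap2c-/- PGCLCs), with a difference between the controls of −1.15 (SE 0.26, adjusted p = 0.0382). All 4 PGCLC arrays were below all 4 ESC arrays. Aldoc, the brain-type aldolase, was 7.73 and 8.26 in control ESCs and 5.98 and 5.93 in control PGCLCs, a difference of −2.04 (SE 0.41, adjusted p = 0.0252). Its values were 8.47 and 7.07 in Tfap2c-/- ESCs and 6.26 and 6.31 in Tfap2c-/- PGCLCs, and a dimmer second probe set of Aldoc gave a control difference of 0.15.

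Tpi1, triose phosphate isomerase, joins the products of aldolase into the payoff phase. It was 10.48 and 10.34 (control ESCs), 10.72 and 9.64 (Tfap2c-/- ESCs), 9.24 and 8.74 (control PGCLCs) and 9.83 and 9.19 (Tfap2c-/- PGCLCs). The control difference was −1.42 (SE 0.36, adjusted p = 0.0521), just short of the threshold, and the 3 probe sets of Tpi1 gave −1.43 to −1.37. Of the phosphofructokinases, which set the pace of the pathway, none passed. Pfkl, the liver type, was within 4.64 to 6.42. Pfkm, the muscle type, was within 6.35 to 6.74. Pfkp, the platelet type, was 9.84 ± 0.10 (SD, n = 2) in control ESCs and 9.22 ± 0.04 (SD, n = 2) in control PGCLCs, a difference of −0.62 (SE 0.26, adjusted p = 0.209), and its 3 probe sets gave −1.97 to −0.62.

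In the payoff phase Pgk1, Pgam1 and Ldhb passed as lower. Pgk1, phosphoglycerate kinase, which makes the first ATP of the phase, was 11.81 and 11.88 (control ESCs), 12.07 and 11.19 (Tfap2c-/- ESCs), 10.67 and 10.60 (control PGCLCs) and 10.76 and 10.73 (Tfap2c-/- PGCLCs). The control difference was −1.21 (SE 0.24, adjusted p = 0.0229), and the genotypes of the PGCLCs differed by 0.11. Pgam1, phosphoglycerate mutase, was 10.72 and 10.61 (control ESCs), 10.75 and 10.49 (Tfap2c-/- ESCs), 9.93 and 9.74 (control PGCLCs) and 10.24 and 10.26 (Tfap2c-/- PGCLCs). The control difference was −0.83 (SE 0.12, adjusted p = 0.0081), and the Tfap2c-/- PGCLCs lay between the control PGCLCs and the ESCs. Ldhb, the lactate dehydrogenase subunit of heart muscle, was 10.98 and 11.40 (control ESCs), 11.57 and 11.02 (Tfap2c-/- ESCs), 10.48 and 10.08 (control PGCLCs) and 10.35 and 10.26 (Tfap2c-/- PGCLCs), with a control difference of −0.91 (SE 0.22, adjusted p = 0.0454).

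Ldha, the subunit that favours the formation of lactate, had the largest difference between the controls of all members and the largest SE. Control ESCs read 10.50 and 10.09, Tfap2c-/- ESCs 10.79 and 8.51, control PGCLCs 7.98 and 6.62 and Tfap2c-/- PGCLCs 9.11 and 7.96. In every group but the control ESCs the replicate 2 array was lower than the replicate 1 array by more than 1, and the control difference of −2.99 (SE 0.75, adjusted p = 0.0516) just missed the threshold. Gapdh, on its brightest control probe set, was 11.87 and 11.77 (control ESCs), 11.94 and 11.55 (Tfap2c-/- ESCs), 12.01 and 11.74 (control PGCLCs) and 12.35 and 12.29 (Tfap2c-/- PGCLCs). In an added fit with that probe set its control difference was 0.05 (SE 0.14, adjusted p = 0.871, limma). The 5′ and middle control probe sets of Gapdh, which were not in that fit, gave −0.36 and −0.23. The control ESC and control PGCLC values of Gapdh overlapped.

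Bpgm, which makes 2,3-bisphosphoglycerate, was within 5.92 to 6.32 on all arrays. Pkm, pyruvate kinase, was 8.75 ± 0.14 (SD, n = 2) in control ESCs and 8.85 ± 0.01 (SD, n = 2) in control PGCLCs, a difference of 0.10 (SE 0.19, adjusted p = 0.8). Eno3, the muscle enolase, was 4.67 and 4.81 in control ESCs and 5.40 and 4.99 in control PGCLCs, a difference of 0.46 (SE 0.32, adjusted p = 0.449). Eno2, the neuronal enolase, was within 2.23 to 2.80. No payoff phase enzyme passed as higher in control PGCLCs.

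The bifunctional PFK2 enzymes make and degrade the activator of phosphofructokinase, and none of the 3 measured genes passed. Pfkfb2 was within 4.53 to 5.60. Pfkfb3 was within 3.13 to 4.48. Pfkfb4 was within 4.92 to 5.46. At the pyruvate dehydrogenase step, which leads into the citrate cycle, none of the 5 genes passed. The subunit gene Pdha1 differed by −0.32 (SE 0.10, adjusted p = 0.0944) between the controls, with levels of 9.88 to 10.31 over all arrays. The subunit gene Pdhb was within 9.88 to 10.29. The kinases that switch the complex off gave −0.41 (SE 0.12, adjusted p = 0.0705) for Pdk1, with levels of 9.55 to 10.13. Pdk2 was within 2.02 to 2.57 and Pdk3 was within 6.44 to 7.24.

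In the pentose phosphate pathway the members moved in both directions. Pgd, 6-phosphogluconate dehydrogenase, which yields NADPH in the oxidative branch, was 10.71 and 10.35 in control ESCs and 9.29 and 9.15 in control PGCLCs, a difference of −1.31 (SE 0.15, adjusted p = 0.00393). Tkt, transketolase of the non-oxidative branch, was 12.14 and 12.26 in control ESCs and 11.42 and 11.26 in control PGCLCs, a difference of −0.86 (SE 0.10, adjusted p = 0.00365). The 3 probe sets of Tkt gave −0.86 to −0.11, the smallest from the dimmest. Rpia, ribose 5-phosphate isomerase, was the only member that passed as higher. It was 6.60 and 6.29 (control ESCs), 6.42 and 7.03 (Tfap2c-/- ESCs), 7.49 and 7.48 (control PGCLCs) and 7.26 and 6.98 (Tfap2c-/- PGCLCs), with a control difference of 1.04 (SE 0.23, adjusted p = 0.0365). Pgls, the lactonase before Pgd, was within 7.13 to 8.23. Rpe, the epimerase, was within 8.19 to 8.64. Taldo1, transaldolase, was within 9.61 to 10.27 and differed by −0.34 (SE 0.13, adjusted p = 0.176) between the controls.

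**Figure D1:**
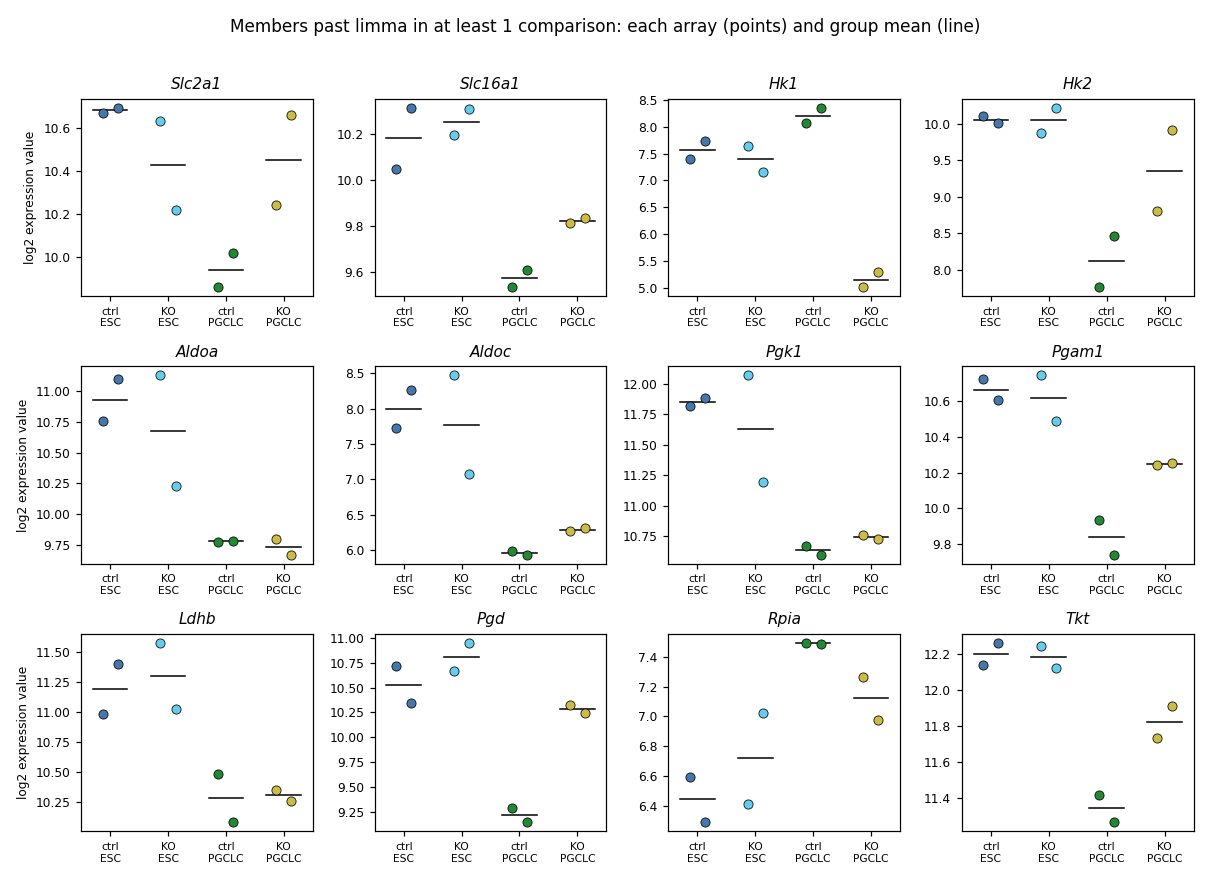
Log2 expression value (vertical axis, its range differing between panels) of the 12 members that passed limma in at least 1 of the 5 comparisons, on each of the 8 arrays (points, replicate 1 left and replicate 2 right) with the group mean (line). Hk1 alone has both Tfap2c-/- PGCLC arrays (KO PGCLC, 5.02 and 5.29) below every other array, and Rpia alone has its lowest arrays in the ESCs.

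Of these 11 calls, those of Pgd and Tkt held in each of the 8 fits that left out 1 array. The count of members was 3 without either control ESC array (replicate 1 or replicate 2), 3 without control PGCLC replicate 1 and 2 without control PGCLC replicate 2. RNA quality measures moved with cell type as well. The 3′ minus 5′ difference of the Gapdh control probe sets was 0.31 to 0.39 in the ESCs, 0.48 to 0.52 in the PGCLCs other than control replicate 2, and 0.95 in control PGCLC replicate 2, the same difference of the pyruvate carboxylase controls was 0.06 to 0.83 in the ESCs and 1.69 to 2.18 in the PGCLCs, and the mean of the poly-A spikes ran from 5.05 to 5.48 and from 5.39 to 7.25. Pcx, the gene of the pyruvate carboxylase controls, was itself higher in control PGCLCs (mean 6.64) than in control ESCs (mean 5.17). The part of its level in the shift of those controls was not tested. The part of the RNA quality measures in the result on the members was not tested.

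The wider pathway was taken from lists of further genes, whose counts stand against the same 3.72% lower and 4.64% higher over all genes. Of 26 side-step and isoform genes of glycolysis 1 was higher, Pcx, pyruvate carboxylase (1.47, SE 0.25, adjusted p = 0.0149). Of 9 further genes of pyruvate import and pyruvate dehydrogenase 3 were lower. They are Dld (−0.71, SE 0.13, adjusted p = 0.02) and Pdhx (−0.81, SE 0.16, adjusted p = 0.0244), components of the complex, and the phosphatase gene Pdp2 (−1.26, SE 0.24, adjusted p = 0.0209). Of 10 further pentose phosphate and ribose genes 3 were lower. Prps2, a phosphoribosyl pyrophosphate synthetase, which hands ribose 5-phosphate on to nucleotide synthesis, was 8.85 and 8.19 (control ESCs), 6.03 and 3.95 (control PGCLCs) and 7.64 and 7.41 (Tfap2c-/- PGCLCs), with a control difference of −3.53 (SE 0.60, adjusted p = 0.0148). Its paralog Prps1 was 9.21 and 9.75 (control ESCs), 7.08 and 6.30 (control PGCLCs) and 8.69 and 8.92 (Tfap2c-/- PGCLCs), with a control difference of −2.79 (SE 0.32, adjusted p = 0.00402). H6pd, which starts the same branch in the endoplasmic reticulum, differed by −1.21 (SE 0.19, adjusted p = 0.0107). Of 20 HIF target genes outside glycolysis Ndrg1 was lower (−2.17, SE 0.34, adjusted p = 0.0106) and Car12 higher (2.63, SE 0.27, adjusted p = 0.0025), and of 17 genes of regulators Prkaa2, a catalytic subunit gene of the energy sensor AMPK, was lower (−1.99, SE 0.39, adjusted p = 0.0234). The calls of Prps1 and Car12 held in each of the 8 fits that left out 1 array, and that of Prps2 was lost without either control ESC array. The others were each lost in 3 or 4 fits without a control array (replicate 1 or 2 of the ESCs or PGCLCs).

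Loss of Tfap2c in PGCLCs was compared next. In Tfap2c-/- PGCLCs Hk1 was lower and Pgd and Tkt were higher than in control PGCLCs, and the other 31 measured members did not pass. Over all genes 1.8% passed as lower and 1.29% as higher. At these shares fewer than 1 of 34 members would pass in each direction, and counts of 1 and 2 are too small to read against them. The median difference of the members was 0.09, against −0.04 over all genes. By a plain difference of group means of over 1.5, Hk1 was the only member past the limit, where 0.89% of all genes were lower by that much.

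Hk1 was 8.06 and 8.35 in control and 5.02 and 5.29 in Tfap2c-/- PGCLCs, a difference of −3.05 (SE 0.23, adjusted p = 0.00147), which is 8.26-fold. The groups did not overlap, and the replicates differed by 0.30 and 0.27 within them. A second, dimmer probe set of Hk1 gave −0.65, with 3.87 and 3.87 in control and 2.93 and 3.52 in Tfap2c-/- PGCLCs. The call held in each of the 8 fits that left out 1 array, with differences of −3.19 to −2.90. The study named Hk1 from these samples, so its direction is not independent evidence. Hk1 is the ubiquitous hexokinase of the outer mitochondrial membrane, and a form of it is known from germ cells.

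Hk2 lay on the other side. It was 7.76 and 8.46 in control and 8.80 and 9.92 in Tfap2c-/- PGCLCs, and its difference of 1.25 (SE 0.36, adjusted p = 0.134) did not pass. In the ESCs Hk2 was 10.11 and 10.01 in controls and 9.87 and 10.22 in Tfap2c-/- cells, so that Tfap2c-/- PGCLC replicate 2 reached the range of the ESCs and the other 3 PGCLC arrays did not. Without Tfap2c-/- PGCLC replicate 1 the Hk2 difference passed, but that fit leaves the higher knockout array alone and takes its spread from the other groups.

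Pgd was 9.29 and 9.15 in control and 10.32 and 10.25 in Tfap2c-/- PGCLCs, a difference of 1.07 (SE 0.15, adjusted p = 0.0142), with no overlap. In the ESCs it was 10.71 and 10.35 in controls and 10.67 and 10.95 in Tfap2c-/- cells, so the Tfap2c-/- PGCLCs were just below the range of the ESCs. All 4 probe sets of Pgd gave a positive difference, from 0.89 to 1.07. Its call was lost without control PGCLC replicate 2 (1.00, adjusted p = 0.12), without Tfap2c-/- PGCLC replicate 1 (1.03, adjusted p = 0.073) and without Tfap2c-/- PGCLC replicate 2 (1.10, adjusted p = 0.089), by limma in each. Tkt was 11.42 and 11.26 in control and 11.73 and 11.91 in Tfap2c-/- PGCLCs, a difference of 0.48 (SE 0.10, adjusted p = 0.0421). Its ESC values were 12.14 and 12.26 in controls and 12.24 and 12.12 in Tfap2c-/- cells. The call of Tkt was lost in all 8 fits that left out 1 array, with adjusted p of 0.051 to 0.294 (limma), while the difference stayed between 0.39 and 0.57.

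The other members lower in control PGCLCs than in control ESCs did not pass in the knockout. Slc2a1 differed by 0.51 (SE 0.18, adjusted p = 0.2) between Tfap2c-/- and control PGCLCs. Slc16a1 differed by 0.25 (SE 0.12, adjusted p = 0.357). Pgam1 differed by 0.41 (SE 0.12, adjusted p = 0.132). Aldoc differed by 0.33 (SE 0.41, adjusted p = 0.79). The differences were 0.11 for Pgk1, −0.05 for Aldoa and 0.02 for Ldhb. In Slc2a1, Slc16a1, Pgam1, Aldoc and Pgk1 both knockout arrays lay above both control PGCLC arrays, and in Aldoa and Ldhb the groups overlapped. How many of all genes separate in this way was not counted, so nothing is concluded from it. These members were also picked for low values in the control PGCLCs. Both comparisons use the control PGCLC arrays and are not independent.

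Among the members that passed in no comparison, Ldha had the largest difference in the knockout (1.23, SE 0.75, adjusted p = 0.517) and Tpi1 gave 0.52 (SE 0.36, adjusted p = 0.576). Gapdh, in the added fit, differed by 0.45 (SE 0.14, adjusted p = 0.159, limma). Its 5′ and middle control probe sets gave 0.65 and 0.60. Of the PFK2 genes, Pfkfb3 gave −0.59 (SE 0.43, adjusted p = 0.598) and Pfkfb4 −0.45 (SE 0.17, adjusted p = 0.242). The 5 genes of the pyruvate dehydrogenase step gave differences from −0.37 for Pdk3 to −0.0036 for Pdhb, and none passed.

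**Figure D2:**
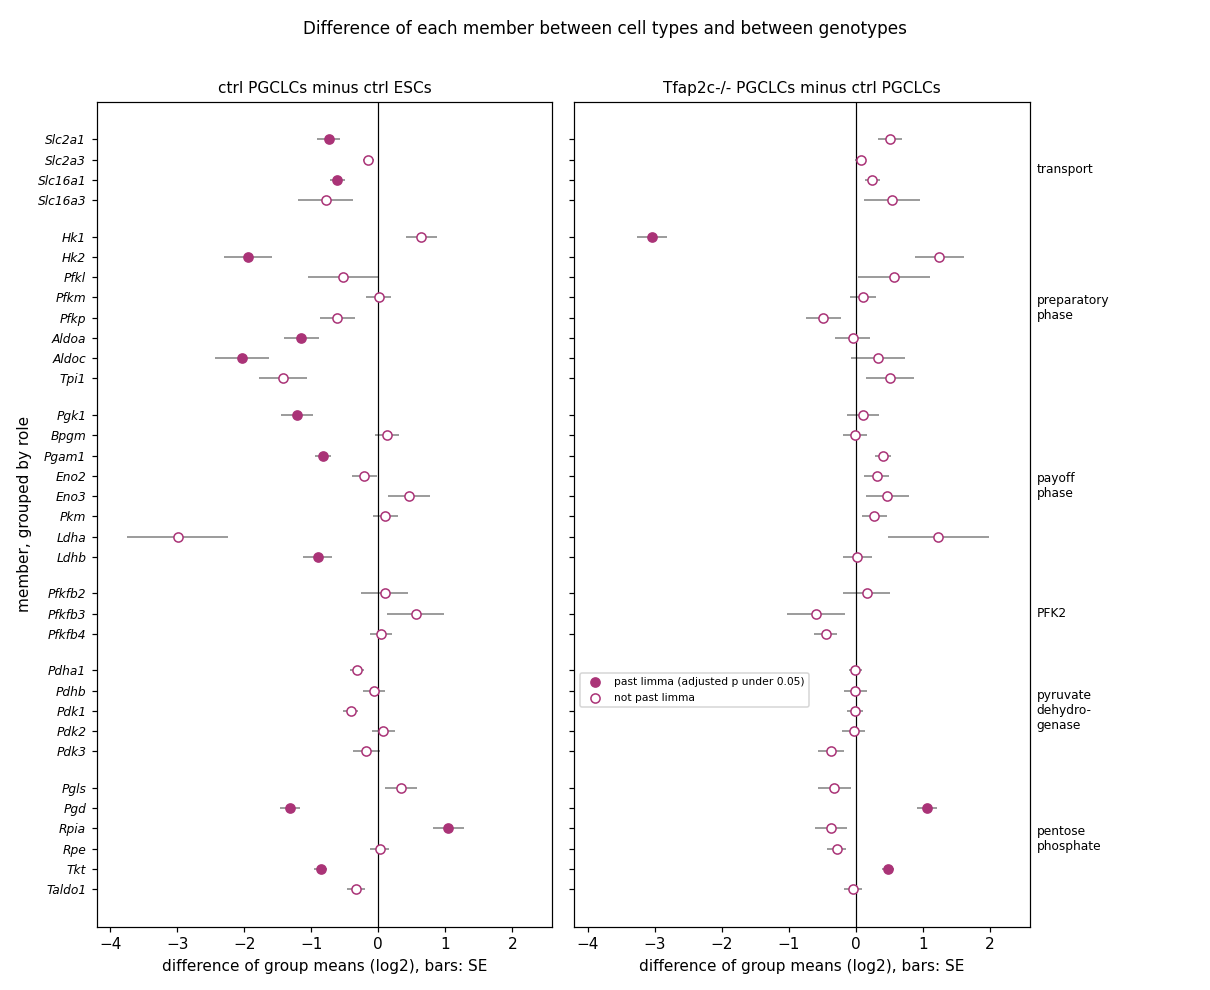
Difference of group means on the log2 scale (horizontal axis, bars are the standard error of limma) for the 34 measured members, grouped by role, in control PGCLCs minus control ESCs (left) and in Tfap2c-/- PGCLCs minus control PGCLCs (right). Filled points passed at an adjusted p under 0.05: on the left 10 are below 0 and Rpia is above, and on the right Hk1 at −3.05 is below and Pgd and Tkt are above.

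In the wider lists the knockout PGCLCs gave 4 calls that touch the pathway. Prps1 was higher (2.12, SE 0.32, adjusted p = 0.0178) and Prps2 lay higher without passing (2.54, SE 0.60, adjusted p = 0.0728). Epas1, which encodes HIF-2 alpha, was 7.15 and 6.55 in control and 8.71 and 8.94 in Tfap2c-/- PGCLCs, a difference of 1.98 (SE 0.21, adjusted p = 0.00513). Of the 20 measured HIF target genes outside glycolysis 2 were lower and none was higher. Ak4, a mitochondrial adenylate kinase, was 8.54 and 7.84 in control and 4.29 and 3.50 in Tfap2c-/- PGCLCs, a difference of −4.29 (SE 0.50, adjusted p = 0.00705). Car12, a carbonic anhydrase, was 5.28 and 5.84 in control and 3.05 and 2.87 in Tfap2c-/- PGCLCs, a difference of −2.59 (SE 0.27, adjusted p = 0.00454). Without Tfap2c-/- PGCLC replicate 2 the calls of Epas1 and Ak4 were lost (adjusted p = 0.0552 and 0.0602, limma), and that of Prps1 was lost without that array, without replicate 1 or without control PGCLC replicate 2 (up to 0.13). No call was made among 26 further genes of glycolysis or 9 of pyruvate import and pyruvate dehydrogenase. The PGC markers moved with the genotype too. Of 9 measured, 8 lay below 0 and 4 passed as lower (Dppa3 with −4.28, Cxcr4 with −1.94, Kit with −1.91 and Alpl with −1.17). The 8 include Tfap2c itself, the deleted gene, which did not pass. Over all genes 1.8% passed as lower and 1.29% as higher. Of the 10 pluripotency markers Klf4 (2.22) and Tdgf1 (1.36) passed as higher, as did Pou3f1 of the 4 primed epiblast markers (1.33). The part of these markers in the results on the members was not tested.

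The effect of the knockout was then set against the cell type. Of the 34 members only Hk1 passed in the difference of the effect, PGCLCs minus ESCs, at −2.89 (SE 0.32, adjusted p = 0.0242). Over all genes 0.115% passed as lower and 0.033% as higher. In the ESCs Hk1 was 7.40 and 7.73 in controls and 7.64 and 7.16 in Tfap2c-/- cells, overlapping groups with a difference of −0.16 (SE 0.23, adjusted p = 1). The difference of the effect kept its size in the fits that left out 1 array (−3.13 to −2.65), but it passed only in the fit without control PGCLC replicate 1 and failed in the other 7 (adjusted p of 0.0547 to 0.148, limma). With the mean of the probe sets of Hk1 it was −1.70 (adjusted p = 0.104, limma). The other members with a difference of the effect over 1 were Ldha (1.88, SE 1.06, adjusted p = 0.698), Hk2 (1.26, SE 0.51, adjusted p = 0.523) and Pfkl (1.11, SE 0.75, adjusted p = 0.76), and none of them passed.

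Between Tfap2c-/- PGCLCs and Tfap2c-/- ESCs, Hk1 was also the only member that passed (−2.24, SE 0.23, adjusted p = 0.00664), against 0.973% of all genes lower and 1.35% higher. The median difference of the members was −0.23, against −0.06 over all genes. Pgk1 differed by −0.89 (SE 0.24, adjusted p = 0.108). Aldoc differed by −1.49 (SE 0.41, adjusted p = 0.115). Pfkp differed by −1.06 (SE 0.26, adjusted p = 0.0886). Ldha differed by −1.11 (SE 0.75, adjusted p = 0.468). The largest positive difference was that of Eno3, with 4.09 and 4.72 in Tfap2c-/- ESCs and 6.05 and 5.29 in Tfap2c-/- PGCLCs (1.27, SE 0.32, adjusted p = 0.0934). Without Tfap2c-/- ESC replicate 2 the count was 4, with Aldoa, Aldoc and Pgk1 beside Hk1. In the wider lists Pcx (1.38, SE 0.25, adjusted p = 0.039) and Epas1 (1.73, SE 0.21, adjusted p = 0.013) were higher, and Ndrg1 (−2.26, SE 0.34, adjusted p = 0.022), H6pd (−0.95, SE 0.19, adjusted p = 0.0492) and Tigar (−1.10, SE 0.22, adjusted p = 0.0494), which lowers fructose 2,6-bisphosphate, were lower. The calls of Pcx, H6pd and Tigar were lost whichever array was left out, and those of Epas1 (adjusted p up to 0.0657) and Ndrg1 (up to 0.114) were lost without Tfap2c-/- ESC replicate 1 and without either Tfap2c-/- PGCLC array (limma).

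In ESCs no member passed between Tfap2c-/- and control cells, and no gene did (0.0% in either direction). At an unadjusted p under 0.05 there were 455 of 18193 genes, and the lowest adjusted p of limma was 0.263. The median difference of the members was −0.05, against −0.0013 over all genes. All 8 measured members of the preparatory phase had a mean below 0, from −0.54 for Pfkl to −0.01 for Hk2. Over all genes 9165 of 18193 were below 0. The direction was not shared by the arrays. On Tfap2c-/- ESC replicate 1, 6 of these 8 lay above the control ESC mean (median 0.23), and on replicate 2, 7 of 8 lay below it (median −0.55). The Tfap2c-/- ESC arrays differed widely from each other in several of the same genes.

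Read one by one, Tfap2c-/- ESC replicate 2 was lower than replicate 1 by more than 1 in 5 of 34 members and higher by more than 1 in none. Over all genes 2.64% were lower and 1.12% higher by that much. The control ESC arrays gave 1 member of 34, Pfkfb3, against 0.693% of all genes. The median of replicate 2 minus replicate 1 over the members was −0.28 in Tfap2c-/- ESCs and 0.07 in control ESCs, where all genes gave −0.05 and 0.02. With 1 array on each side, these are descriptions with no test.

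In Tfap2c-/- ESCs Ldha was 10.79 on replicate 1 and 8.51 on replicate 2, a difference of −2.28, while the control ESC arrays read 10.50 and 10.09. Pfkl was 6.42 on replicate 1 and 4.64 on replicate 2 (−1.78), with 5.96 and 6.18 (control ESCs), 5.96 and 5.14 (control PGCLCs) and 6.26 and 5.98 (Tfap2c-/- PGCLCs). Another probe set of Pfkl gave −1.06, and the dimmest of the 3 gave 0.20. Aldoc was 8.47 on replicate 1 and 7.07 on replicate 2 (−1.40). Tpi1 was 10.72 on replicate 1 and 9.64 on replicate 2 (−1.07), and each of its 3 probe sets was lower by more than 1. Slc16a3 was 3.60 on replicate 1 and 2.20 on replicate 2 (−1.40), with 3.13 and 2.91 (control ESCs), 2.49 and 1.98 (control PGCLCs) and 2.97 and 2.58 (Tfap2c-/- PGCLCs). In each of these 5 genes replicate 1 was above and replicate 2 below both control arrays.

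The next in order were Aldoa (−0.90) and Pgk1 (−0.88), each with 1 Tfap2c-/- ESC array above and 1 below the controls. At the other end stood Eno3, Rpia, Pfkfb2, Hk2 and Pgd. Eno3 was 4.09 on replicate 1 and 4.72 on replicate 2 (0.63), with 6.05 and 5.29 in Tfap2c-/- PGCLCs. Rpia was 6.42 on replicate 1 and 7.03 on replicate 2 (0.61). Pfkfb2 was 4.55 on replicate 1 and 5.05 on replicate 2 (0.49), with 4.63 and 4.98 (control ESCs), 4.82 and 4.98 (control PGCLCs) and 4.53 and 5.60 (Tfap2c-/- PGCLCs). Hk2 and Pgd differed by 0.35 and 0.28. By role, the median was −0.76 over the 8 members of the preparatory phase and −0.42 over 8 of the payoff phase. It was −0.31 over 5 of the pyruvate dehydrogenase step, −0.20 over the 4 transporters and −0.02 over 6 of the pentose phosphate pathway. The 3 PFK2 genes gave 0.18, and all 3 were higher on replicate 2. In the preparatory phase 7 of 8 members were lower on replicate 2, in the payoff phase 6 of 8 and at the pyruvate dehydrogenase step 5 of 5. In transport 2 of 4 were lower, and in the pentose phosphate pathway 3 of 6. Over all genes 10192 of 18193 were lower.

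HIF target genes outside glycolysis also differed between these arrays. Of 20 measured, 10 were lower by more than 1 on Tfap2c-/- ESC replicate 2 than on replicate 1 and none was higher, with a median of −1.05. On the control ESC arrays the median was 0.20 and none was lower by that much. Bnip3, a mitophagy receptor gene, was 9.61 on replicate 1 and 6.56 on replicate 2, with 8.95 and 8.73 in control ESCs. Ddit4, an inhibitor of mTORC1, was 8.80 on replicate 1 and 6.27 on replicate 2, with 7.70 and 9.25 in control ESCs. Vegfa, the angiogenic growth factor gene, was 5.99 on replicate 1 and 3.81 on replicate 2, with 5.28 and 6.04 in control ESCs. In all 3 genes replicate 2 was the lowest of the 4 ESC arrays. Hif1a itself was 9.84 on replicate 1 and 9.24 on replicate 2, with 9.61 and 10.03 in control ESCs. Of the 17 measured regulators of the pathway, 1 was higher by more than 1 on replicate 2 (Myc, 1.51). Another 2 were lower by more than 1 (Txnip, −1.22, and Prkaa2, −1.06). Over all genes 1.12% were higher and 2.64% lower by that much. On the control ESC arrays 1 regulator was higher by more than 1 (Txnip, 1.05) and none was lower. The pluripotency markers differed little between these arrays (median 0.07), and their Gapdh 3′ minus 5′ differences were 0.38 and 0.39. Between replicate 1 and replicate 2, the pyruvate carboxylase 3′ minus 5′ difference was 0.56 and 0.06, and the mean of the poly-A spikes was 5.37 and 5.05. Single markers of other lists differed by more than 1 (replicate 2 minus replicate 1), with 1.93 for Dppa3 and −1.21 for Prdm1 of the PGC markers, 1.77 for Otx2 of the primed epiblast, and 1.17 for Tfap2a, −1.37 for Krt18 and −1.81 for Krt7 of the trophoblast. Between the control ESC arrays Dppa3 differed by 2.61 and Krt7 by 1.96, more than between the Tfap2c-/- ESC arrays. The other control differences were −0.24 for Prdm1, 0.44 for Otx2, −0.50 for Tfap2a and 0.91 for Krt18. The labels give no culture or handling detail for single arrays, and the part of these measures in the members' values was not tested.

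**Figure D3:**
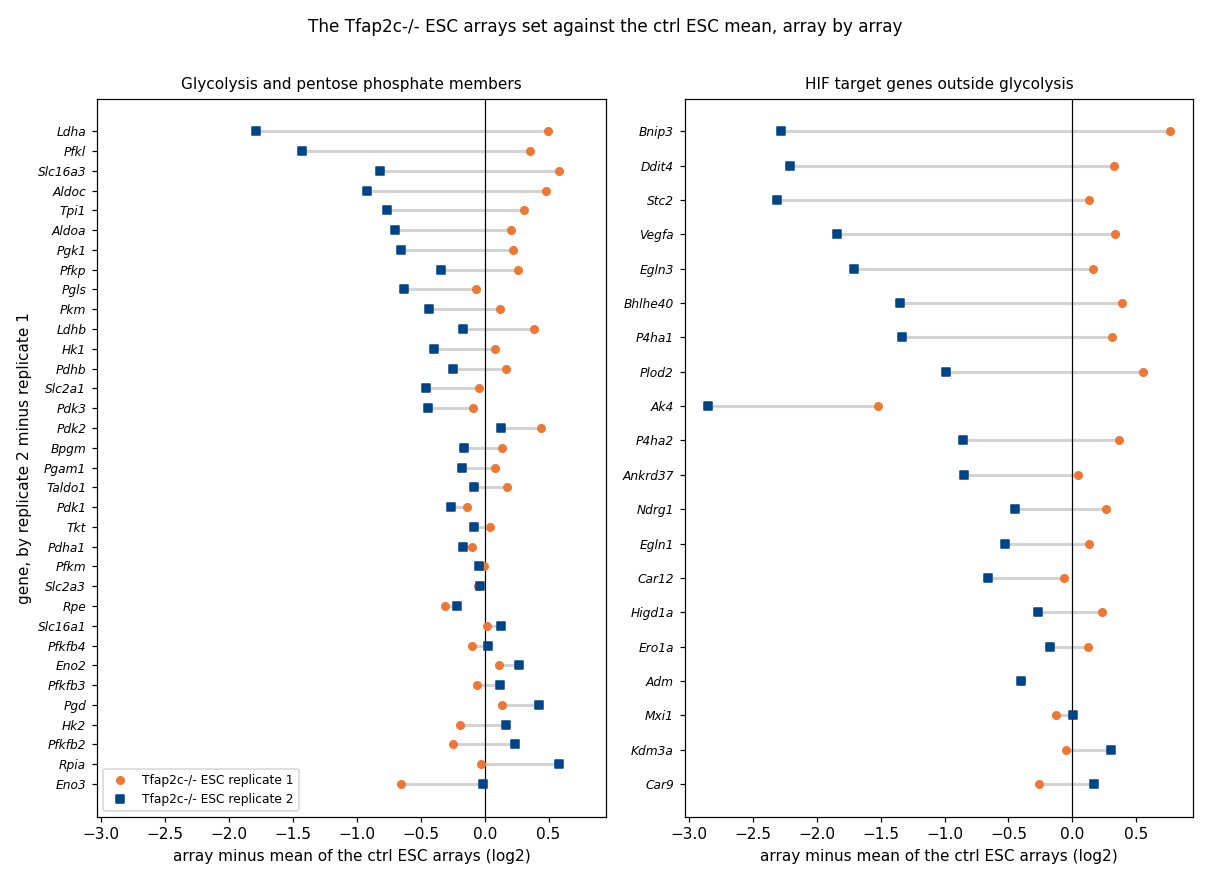
Each Tfap2c-/- ESC array minus the mean of the 2 control ESC arrays (horizontal axis, log2) for the 34 measured members (left) and for 20 HIF target genes outside glycolysis (right), ordered by replicate 2 minus replicate 1 (circles replicate 1, squares replicate 2). Ldha, at the top left, lies at 0.49 on replicate 1 and −1.79 on replicate 2, and 10 of the 20 HIF targets have squares more than 1 below their circles.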

How the data were processed

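Gene expression was measured on 8 Affymetrix genome-wide mouse arrays, 2 for each of 4 groups. The deposited values are log2 expression values that the authors summarised from probe intensities. RMA is named in the study's methods, whereas the notes of the submitters on processing name GCRMA, which corrects background by probe sequence, and which of them was used could not be settled. It bears most on dim genes. The table holds 45101 probe sets, 64 of them controls. The annotation names 1 gene for 34945, several for 932 and lists none for 9160. For each of 18193 genes the brightest probe set, by its mean level, was kept.

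All 8 arrays were fitted together with limma 3.58.1 in R 4.3.3 (4 group means, moderated variance with a trend on level, 4 residual degrees of freedom and a prior of 3.67). The 5 contrasts were tested two-sided, with Benjamini-Hochberg adjustment over all 18193 genes. The fit was tested on simulated data. The number of arrays limits the precision, since n is 2 in each group and p-values measure the spread between these samples. The genotype effect was also compared between cell types, and arrays were compared one by one without a test.

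Members and lists were chosen with earlier results of these data known. All members were named, with values on every array for those that passed and for the 5 with the largest positive and the 5 with the largest negative difference between the Tfap2c-/- ESC arrays. Of each other list up to 3 genes that passed were named per comparison, and where up to 5 passed all could be. Promoters came from RefSeq windows (38 of 39 members matched, 58 windows). Alternatives were other probe set rules, a minimum mean of 5, no trend, quantile normalization, centring, a replicate block, only the arrays compared, each array left out, and, chosen after the data were seen, control probe sets added and a crossed block. Tables were joined with pandas 2.3.3 in Python 3.11.15 and figures drawn with Matplotlib 3.10.9.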

Additional observations from a re-analysis of the deposited data

Results flagged for a closer look

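The effect of the knockout on Hk1 differed between the cell types. The difference of the effects, PGCLCs minus ESCs, was −2.89 on the log2 scale (adjusted p = 0.0242, limma interaction contrast over 18193 genes), with a knockout effect of −3.05 in PGCLCs and −0.16 in ESCs. Both Tfap2c-/- PGCLC arrays were below both control PGCLC arrays, and the ESC groups overlapped. The difference of the effects passed in 1 of the 8 fits that left out 1 array, the one without control PGCLC replicate 1, and it did not pass with the mean of the probe sets of Hk1 (−1.70, adjusted p = 0.104, limma).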

How the results depend on the processing

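None of the single members' results that passed in the main fit changed direction over the alternatives. These results kept their side of the threshold in 212 cases and lost it in 74. Members' results that did not pass were not checked for direction. Leaving out each array in turn moved the members past limma from 3 to between 1 and 2 in the PGCLC genotype comparison, from 11 to between 2 and 13 between the controls, from 1 to between 1 and 4 between the Tfap2c-/- groups, and from 1 to between 0 and 1 for the difference of the effect, and it left 0 to 0 in ESCs. Over all genes the counts ran from 87 to 609 (562 with all arrays), from 325 to 1721 (1522), from 80 to 278 (422), from 1 to 56 (27) and from 0 to 1 (0). With only the 4 arrays compared, 187 genes passed between PGCLC genotypes, and 56 genes and 0 members between the Tfap2c-/- groups. The members there were 2 without probe sets liable to cross-hybridize, 2 at a mean of at least 5, 5 with centred arrays (Aldoa, Aldoc, Ldhb and Pgk1 beside Hk1) and 3 with every probe set on its own. For the difference of the effect 13 genes passed at a mean of at least 5, 41 with quantile normalization, 66 with centring, and 0 members with the mean of probe sets. Centring gave 1 gene in ESCs. The mean of probe sets gave 3 members lower by over 1 between the Tfap2c-/- ESC arrays instead of 5. With the mean of probe sets 13 members passed between the controls, Slc2a3, Pfkp, Pdha1 and Pdk1 being added and Slc2a1 and Slc16a1 lost. With the minimum mean of 5, 14 members passed between the controls, Ldha, Tpi1 and Pdk1 being added. The cause of these changes was not tested, beyond the fewer arrays or genes in a fit.

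The labels do not say that the replicate numbers pair the samples, and not every pair of groups deviated together. For each group the difference of replicate 2 minus replicate 1 was taken, and these differences were correlated across genes between groups. The correlation was 0.39 between the PGCLC genotypes and −0.33 between the ESC genotypes. It was 0.26 and 0.17 between Tfap2c-/- ESCs and the Tfap2c-/- and control PGCLCs. Between control ESCs and the control and Tfap2c-/- PGCLCs it was 0.07 and −0.005. The replicate block gave 556, 0, 22, 1571 and 454 genes in PGCLCs, in ESCs, for the difference of the effect, between the controls and between the Tfap2c-/- groups, and 2, 0, 1, 12 and 1 members. With the block Tkt was lost between the PGCLC genotypes (adjusted p = 0.0602, limma), and between the controls Slc2a1 was lost and Ldha and Tpi1 were added. The crossed pairing of the ESC arrays (correlation −0.33 as numbered) gave 0 genes and 0 members. Dim genes such as Slc16a3, Eno2 and Pdk2 lie under the median level of 4.68, where the choice of background correction bears most.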
